A study of Arabidopsis thaliana with 6 samples.

Results

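The core cell cycle genes of *Arabidopsis thaliana* were compared between shoot apices of wild-type (WT) and *vip3-1* plants. The set of 46 genes was chosen by locus from known gene families and is 46 of the 33554 genes in the deposited tables. It holds 9 D-type cyclins, 3 A3-type cyclins, 3 E2F transcription factors and the retinoblastoma-related gene *RBR1* (16 genes of the G1/S transition), 5 A1- or A2-type cyclins, 9 B-type cyclins, 4 B-type cyclin-dependent kinases (CDKs) and the cytokinesis syntaxin gene *KNOLLE* (19 genes of the G2/M transition), 9 CDK inhibitors, and *CDKA;1* and *WEE1*, which act at both transitions.

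WT was the Col-0 ecotype and *vip3-1* a T-DNA insertion line in *VIP3*, which codes for a subunit of the Polymerase-Associated Factor 1 complex. Plants of both genotypes were kept under short days (21°C) before a shift to continuous light (16°C), and flowers past stage 4 were dissected away. There were 3 libraries per genotype, and RNA from 2 tubes of 30 to 35 apices went into each. The methods call these technical triplicates and do not state that the plants were grown separately, so p-values measure only the spread between these libraries, and an effect of the genotype cannot be told apart from one of growth or harvest.

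In plants, D-type cyclins bind CDKA;1 and phosphorylate RBR1, which releases E2F factors and lets S phase begin. A2- and B-type cyclins with CDKA;1 and B-type CDKs then drive entry into mitosis, and many of their genes are transcribed in a burst at G2/M through MYB3R factors that bind the MSA element, whose core is AACGG. KRP and SIAMESE-type proteins bind and inhibit CDK complexes, and SIAMESE-type inhibitors are best known for turning dividing cells to endoreduplication, as in leaf hairs and in giant sepal cells.

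Because the set is divided by transition, the 250 bases upstream of each annotated start were searched for AACGG on both strands (CCGTT on the opposite strand). The sequences below come from the RefSeq annotation of TAIR10.1, in which all 46 genes were matched, and are written 5′ to 3′ on the strand of the gene with each match in capitals. *CYCB1;1* (chr4:17624309-17624558, minus strand) and *CYCB1;2* (chr5:1861704-1861953, minus strand) are shown because both hold several matches, 3 and 4, yet only the former was past the threshold between genotypes. *CYCB2;4* (chr1:28630790-28631039, minus strand) is shown as a B-type cyclin gene past the threshold with 0 matches, and *KRP2* (chr3:18800056-18800305, plus strand) as an inhibitor gene with 2 matches.
CYCB1;1: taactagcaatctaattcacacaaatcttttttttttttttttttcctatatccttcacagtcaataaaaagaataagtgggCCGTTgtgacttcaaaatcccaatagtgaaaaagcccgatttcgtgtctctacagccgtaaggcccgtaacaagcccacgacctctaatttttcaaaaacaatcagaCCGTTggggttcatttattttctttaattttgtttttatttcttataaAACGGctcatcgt
CYCB1;2: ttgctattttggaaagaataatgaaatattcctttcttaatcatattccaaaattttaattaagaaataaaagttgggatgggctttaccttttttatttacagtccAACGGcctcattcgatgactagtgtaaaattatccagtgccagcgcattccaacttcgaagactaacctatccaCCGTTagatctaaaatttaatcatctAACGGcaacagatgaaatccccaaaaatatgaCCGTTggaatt
CYCB2;4: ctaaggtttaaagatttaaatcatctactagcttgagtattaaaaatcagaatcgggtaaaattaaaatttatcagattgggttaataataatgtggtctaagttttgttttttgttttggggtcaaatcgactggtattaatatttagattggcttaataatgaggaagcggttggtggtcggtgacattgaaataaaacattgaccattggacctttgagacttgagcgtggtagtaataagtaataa
KRP2: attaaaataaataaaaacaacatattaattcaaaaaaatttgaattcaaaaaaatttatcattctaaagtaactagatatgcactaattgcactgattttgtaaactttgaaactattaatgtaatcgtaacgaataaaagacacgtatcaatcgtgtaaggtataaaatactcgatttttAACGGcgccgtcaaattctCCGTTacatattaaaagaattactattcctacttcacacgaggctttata

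AACGG was present in 5645 of 27443 promoters of protein-coding genes in this window (20.6%). It was found in 10 of 19 G2/M members, 6 of 9 of the B-type cyclins among them, in 4 of 16 G1/S members and in 4 of 9 inhibitors. Within the G2/M members it was in 4 of the 8 genes past the threshold and in 6 of the 11 others. An E2F-type motif, TTTNNCGN with C or G at each N, was in 768 of 27443 promoters (2.80%). Among the members it was found on either strand in *CYCD3;3*, *CYCA3;4* and *RBR1* and in no G2/M member or inhibitor. A match is a description of these letters and not a binding site.

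Libraries held between 50040048 and 69033269 estimated counts. Values per library are CPM, counts relative to a TMM-scaled library size, and compare one gene between libraries. Log2 fold changes are those of *vip3-1* over WT, and a gene was called changed at an adjusted p under 0.05 in edgeR's quasi-likelihood test over 20690 genes. *VIP3* (AT4G29830) itself measured 40.8, 41.7 and 40.1 CPM in WT and 5.96, 7.41 and 7.30 CPM in *vip3-1*, a log2 fold change of -2.57 ± 0.10 (SE, adjusted p = 0.000192), and the shoot and flower meristem markers were present in every library. These markers summed to 1045 to 1310 CPM in WT and to 1464 to 1554 CPM in *vip3-1*. Of the 9, 5 were called higher and 1 lower (66.7% called, against 30.7% of all genes), and none was at 0. Part of 15 members is overlapped by a gene annotated on the opposite strand, among them *CYCD3;2*, *RBR1*, *CDKB1;2*, *CDKB2;1*, *KNOLLE*, *SIM* and *SMR1*, and whether strand was used in counting was not given in the sources used here. WT replicate 3 stood apart. The 15 markers of older flowers, mostly genes of the anther tapetum, summed to 990 CPM in it and to between 45.0 and 88.0 CPM in the other 5 libraries, and of the 15 only the ovule gene *INO* had a count of 0 in any library. Leaf photosynthesis markers summed to 3124 to 4520 CPM in WT and to 2029 to 2958 CPM in *vip3-1*. Of the 5, 2 were called lower (40.0% called, against 30.7% of all genes), and none was at 0. Fewer cells of a type and less RNA per cell cannot be told apart in such pooled tissue, and the part of these markers in the results was not tested.

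Of the 46 members, 15 were called (32.6%), 14 higher and 1 lower in *vip3-1*. Over all genes tested, 30.7% were called, 14.6% higher and 16.1% lower. The share of members called was close to that of all genes, and 14 of the 15 were higher where higher and lower calls were 3031 and 3323 over all genes. With library sizes left without TMM the split was 2270 higher and 4786 lower over all genes, and 9 members were higher and 3 lower. The median log2 fold change was 0.24 over the members and -0.02 over all genes, and 33 members had a point estimate above 0. By class, 2 of 16 G1/S members (12.5%), 8 of 19 G2/M members (42.1%) and 5 of 9 inhibitors (55.6%) were called. Every called G1/S and G2/M member was higher in *vip3-1*, whereas 4 inhibitors were higher and 1 lower. The median log2 fold changes were 0.22 in G1/S members, 0.28 in G2/M members and -0.12 in inhibitors, and these medians were not tested against each other.

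The size of the changes was small. The called members other than the inhibitors lay between log2 fold changes of 0.28 and 0.59, while *SIM* at 1.20 and *KRP6* at 0.97 were the furthest from 0 of all called members. Of the 15 calls, 5 held in all 14 alternative analyses (*CYCD3;1*, *CYCB1;1*, *KRP2*, *KRP6* and *SIM*), and none of the 15 changed direction in any of them. The genotypes did not overlap in any of these genes, so leaving out a library could hardly turn a direction.

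**Figure D1:**
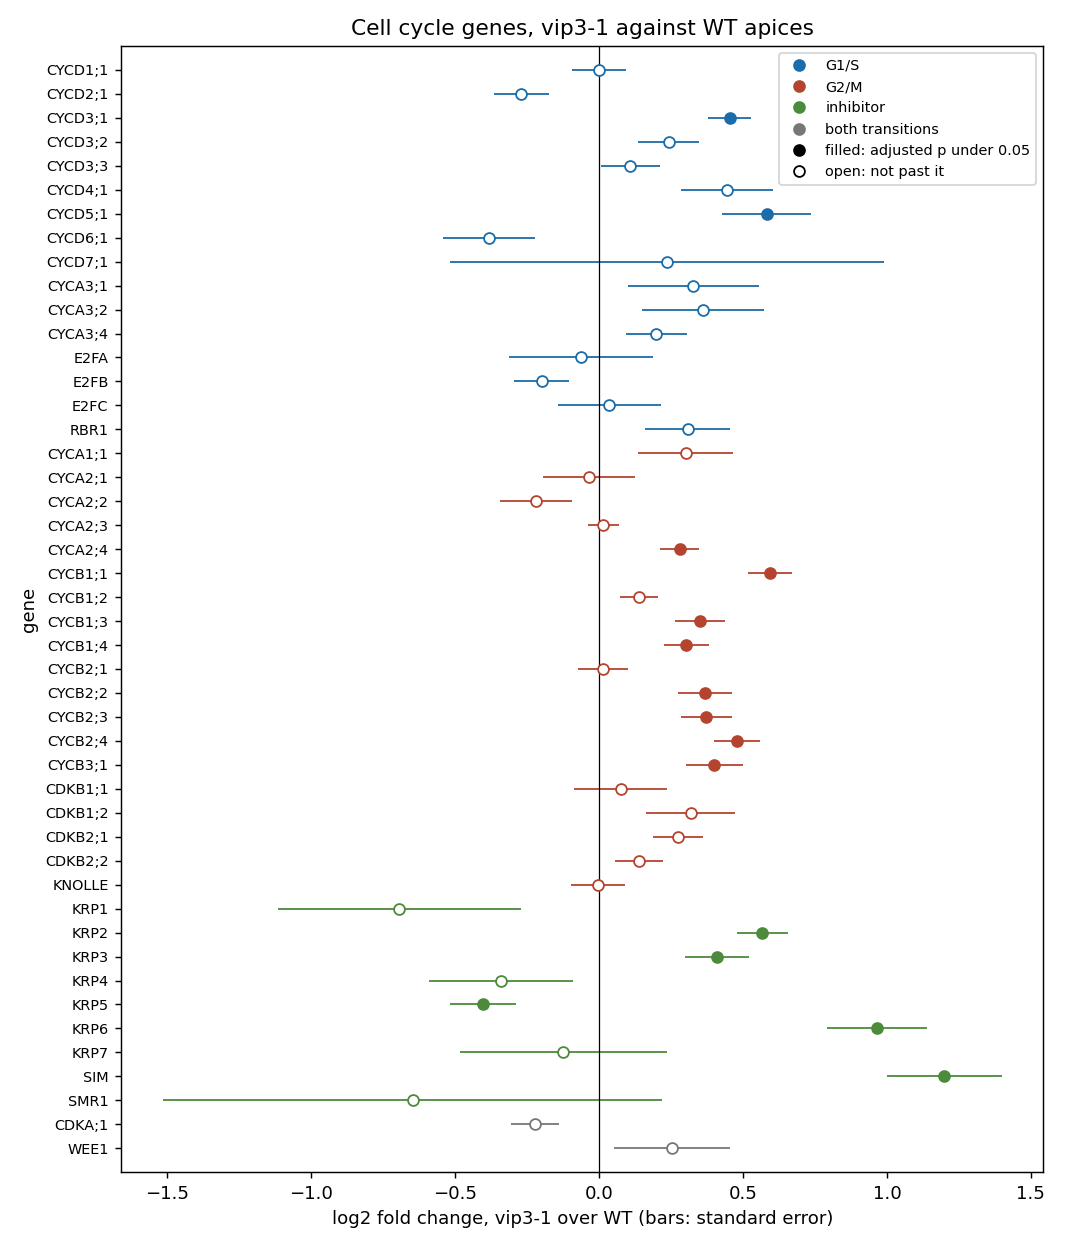
Log2 fold change of *vip3-1* over WT (horizontal axis) for each of the 46 genes (vertical axis), with standard errors as bars, colours for the class and filled points for genes past the threshold. The filled G1/S and G2/M points lie between 0.28 and 0.59, *SIM* lies at 1.20, and *KRP5* at -0.40 is the only filled point below 0.

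Among the D-type cyclins, which link growth and hormone signals to the start of the cycle, 2 of 9 were higher in *vip3-1* and none lower. That was 22.2% called, against 30.7% of all genes. *CYCD3;1* (AT4G34160), a cytokinin-responsive cyclin that keeps cells in mitotic cycles, measured 129, 122 and 111 CPM in WT replicates 1, 2 and 3 and 158.5, 169 and 169 CPM in *vip3-1* replicates 1, 2 and 3. Every *vip3-1* library lay above every WT library. The means were 121 ± 8.92 CPM in WT and 165 ± 6.06 CPM in *vip3-1* (± SD, n = 3), a log2 fold change of 0.45 ± 0.08 (SE, adjusted p = 0.00831). AT4G34150 is annotated over part of this gene on the same strand, and reads of the overlap cannot be told apart.

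*CYCD5;1* (AT4G37630), associated with natural variation in endoreduplication, measured 17.2, 16.1 and 11.9 CPM in WT and 21.4, 25.4 and 21.0 CPM in *vip3-1*. WT replicate 3 was the lowest library, and the genotypes did not overlap. The log2 fold change was 0.58 ± 0.15 (SE, adjusted p = 0.0322), and 0.44 without WT replicate 3 (adjusted p = 0.0186). The call was lost in 7 of the 14 alternatives, among them those without WT replicate 2 and without any one *vip3-1* replicate.

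Other D-type cyclins were not past the threshold. *CYCD3;2* (AT5G67260) had the highest level per length of the G1/S members, 193 ± 6.59 FPKM in WT and 232 ± 22.5 FPKM in *vip3-1*. It measured 206, 231 and 248 CPM in WT and 256, 299.9 and 255 CPM in *vip3-1*. All *vip3-1* libraries exceeded all WT libraries, but 2 of them by less than 8 CPM over the highest WT library, and the log2 fold change was 0.24 ± 0.11 (SE, adjusted p = 0.122). *CYCD4;1* (AT5G65420), with roles in stomatal and lateral root divisions, measured 13.0, 11.7 and 8.44 CPM in WT and 14.9, 14.9 and 15.3 CPM in *vip3-1*, with little spread in *vip3-1* and WT replicate 3 lowest. Its log2 fold change was 0.44 ± 0.16 (SE, adjusted p = 0.0768). It reached the threshold without WT replicate 3 (0.28, adjusted p = 0.034), without WT replicate 1 (0.58, adjusted p = 0.049) and with DESeq2 (0.46, adjusted p = 0.0416). *CYCD2;1* (AT2G22490) ran in the opposite direction, with 11.7, 11.3 and 10.4 CPM in WT and 9.80, 9.34 and 8.63 CPM in *vip3-1*. Its genotypes did not overlap, at a log2 fold change of -0.27 ± 0.10 (SE, adjusted p = 0.072). It was past the threshold without WT replicate 3 (-0.32, adjusted p = 0.0362) and with library sizes left without TMM (-0.37, adjusted p = 0.0241). The remaining D-type genes *CYCD1;1*, *CYCD3;3*, *CYCD6;1* (known from formative divisions of the root ground tissue) and *CYCD7;1* (known from the last division of the stomatal lineage) overlapped between genotypes, with log2 fold changes of 0.00, 0.11, -0.38 and 0.23.

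None of the A3-type cyclins, which act around S phase, and none of the E2F-RBR genes was called. Most of their WT spread came from one library. *CYCA3;2* (AT1G47210) measured 40.6, 41.6 and 23.4 CPM in WT and 45.3, 47.0 and 43.3 CPM in *vip3-1*. WT replicate 3 was far below the other 5 libraries, which lay close together. The log2 fold change was 0.36 ± 0.21 (SE, adjusted p = 0.229), and fell to 0.14 without WT replicate 3 (adjusted p = 0.112). *CYCA3;1* and *CYCA3;4* had log2 fold changes of 0.33 and 0.20, and overlapped between genotypes.

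*RBR1* (AT3G12280), the repressor of E2F activity, measured 121, 134 and 88.9 CPM in WT and 138, 146 and 141 CPM in *vip3-1*. Again WT replicate 3 was lowest and the *vip3-1* libraries were close together, above all WT libraries. The log2 fold change was 0.31 ± 0.15 (SE, adjusted p = 0.153), and 0.15 without WT replicate 3 (adjusted p = 0.11). Of the E2F genes, the activators *E2FA* and *E2FB* had log2 fold changes of -0.06 and -0.20, and *E2FC*, known as a repressor, had 0.04. Without WT replicate 3, *E2FA* stood at -0.31 (adjusted p = 0.0651) and *E2FC* turned to -0.15 (adjusted p = 0.196). *E2FB* (AT5G22220) was called lower only without WT replicate 3 (-0.27, adjusted p = 0.0367).

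The B-type cyclins, which are made at G2 and destroyed at anaphase, held most of the called G2/M genes. Of these 9 genes 7 were higher in *vip3-1* and none lower, with a median log2 fold change of 0.37, and all 9 had point estimates above 0. The same 7 were called without WT replicate 3. *CYCB1;1* (AT4G37490), the standard marker of G2/M cells and also a gene induced by DNA damage, measured 59.9, 63.2 and 54.3 CPM in WT replicates 1, 2 and 3 and 89.4, 93.1 and 85.4 CPM in *vip3-1* replicates 1, 2 and 3. The lowest *vip3-1* library was above the highest WT library by more than the range within either genotype. The means were 59.2 ± 4.46 CPM in WT and 89.3 ± 3.84 CPM in *vip3-1* (± SD, n = 3), with a log2 fold change of 0.59 ± 0.08 (SE, adjusted p = 0.00404), or 1.51-fold.

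*CYCB2;4* (AT1G76310) measured 54.2, 54.4 and 51.7 CPM in WT and 68.5, 81.1 and 73.9 CPM in *vip3-1*. In CPM the WT libraries were nearly alike and all *vip3-1* libraries were higher, replicate 2 most. The means were 53.5 ± 1.51 CPM in WT and 74.5 ± 6.34 CPM in *vip3-1* (± SD, n = 3), with a log2 fold change of 0.48 ± 0.08 (SE, adjusted p = 0.00783). In FPKM the WT spread was wider, with 50.4 ± 9.42 in WT and 69.9 ± 6.71 in *vip3-1*. The call held in 11 of 14 alternatives and was lost in each limma fit on log2 FPKM (adjusted p from 0.061 to 0.095).

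*CYCB3;1* (AT1G16330) measured 32.1, 31.9 and 26.0 CPM in WT and 38.1, 42.1 and 38.7 CPM in *vip3-1*. WT replicate 3 was the lowest, and the log2 fold change of 0.40 ± 0.10 (SE, adjusted p = 0.0274) was 0.31 without it. *CYCB2;3* (AT1G20610) measured 47.3, 47.9 and 56.7 CPM in WT and 63.7, 64.8 and 68.2 CPM in *vip3-1*. Here WT replicate 3 was the highest of its genotype, so the log2 fold change of 0.37 ± 0.09 (SE, adjusted p = 0.0232) was larger without it, at 0.46. *CYCB2;2* (AT4G35620) measured 38.8, 36.7 and 32.5 CPM in WT and 46.3, 50.2 and 43.0 CPM in *vip3-1*. The genotypes did not overlap, with a log2 fold change of 0.37 ± 0.09 (SE, adjusted p = 0.0299).

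*CYCB1;3* (AT3G11520) measured 30.2, 32.3 and 33.7 CPM in WT and 36.8, 44.3 and 41.4 CPM in *vip3-1*. WT replicate 1 was lowest here and *vip3-1* replicate 2 highest, at a log2 fold change of 0.35 ± 0.09 (SE, adjusted p = 0.0278). *CYCB1;4* (AT2G26760) measured 50.5, 49.7 and 43.7 CPM in WT and 57.3, 61.8 and 58.5 CPM in *vip3-1*. Its libraries did not overlap between genotypes, and the log2 fold change was 0.30 ± 0.08 (SE, adjusted p = 0.0306). These 5 calls were less stable than those of *CYCB1;1* and *CYCB2;4*, as *CYCB1;3* was called in 9, *CYCB2;2* in 8, *CYCB3;1* in 7, *CYCB2;3* in 5 and *CYCB1;4* in 4 of the 14 alternatives.

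The other 2 B-type cyclins were not past the threshold. *CYCB1;2* (AT5G06150) measured 119.6, 110.3 and 114 CPM in WT and 121, 133 and 125 CPM in *vip3-1*. The *vip3-1* libraries were above WT, the lowest by little more than 1 CPM, and the log2 fold change was 0.14 ± 0.07 (SE, adjusted p = 0.151). *CYCB2;1* overlapped between genotypes at a log2 fold change of 0.01.

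**Figure D2:**
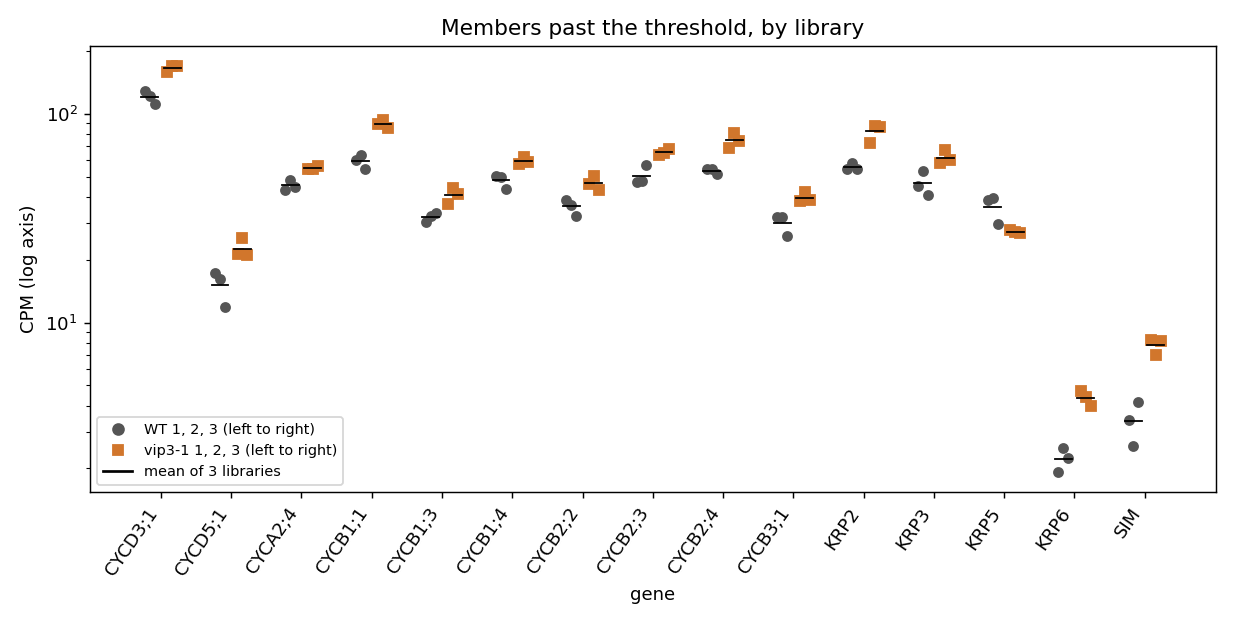
CPM on a log axis in each of the 6 libraries for the 15 called genes, WT as circles and *vip3-1* as squares, with a line at each mean of 3. For *CYCB1;1* the squares lie between 85.4 and 93.1 CPM and the circles between 54.3 and 63.2 CPM, and *KRP5* is the only gene with its squares below its circles.

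Of the A1- and A2-type cyclins, *CYCA2;4* (AT1G80370), one of the A2 genes that hold back endoreduplication together with CDKB1;1, measured 43.2, 48.4 and 44.5 CPM in WT and 54.5, 54.6 and 56.0 CPM in *vip3-1*. The *vip3-1* libraries lay within 2 CPM of each other and above WT, with a log2 fold change of 0.28 ± 0.07 (SE, adjusted p = 0.0244). The call held in 6 of 14 alternatives. *CYCA1;1*, *CYCA2;1*, *CYCA2;2* and *CYCA2;3* overlapped between genotypes, with log2 fold changes of 0.30, -0.04, -0.22 and 0.01.

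No B-type CDK, the plant-specific kinases of G2/M, was called. *CDKB2;1* (AT1G76540), which is needed for meristem organization, measured 157, 150.2 and 132 CPM in WT and 183, 182 and 166 CPM in *vip3-1*. The genotypes did not overlap, and the log2 fold change of 0.27 ± 0.09 (SE, adjusted p = 0.0553) narrowly missed the threshold. Blocking on the replicate number, a fit that called 35.7% of all genes, gave an adjusted p of 0.0235. DESeq2 (adjusted p = 0.012) and a minimum of 10 counts per library (adjusted p = 0.048) also passed the threshold, and the other alternatives did not. *CDKB1;2* (AT2G38620) measured 37.5, 37.9 and 26.3 CPM in WT and 42.4, 46.2 and 38.3 CPM in *vip3-1*. WT replicate 3 was lowest by a wide margin, the log2 fold change was 0.32 ± 0.15 (SE, adjusted p = 0.156), and the blocked adjusted p was 0.0417. It dropped to 0.17 with that library left out (adjusted p = 0.172). *CDKB1;1* and *CDKB2;2* had log2 fold changes of 0.07 and 0.14 and overlapped, with -0.08 and 0.07 without WT replicate 3.

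*KNOLLE* (AT1G08560), the syntaxin that fuses vesicles at the cell plate, had the highest level per length of the G2/M members, 212 ± 54.1 FPKM in WT and 211 ± 31.9 FPKM in *vip3-1*. It measured 205, 196 and 174 CPM in WT and 183, 208 and 183 CPM in *vip3-1*, with full overlap. Its log2 fold change was -0.0024 ± 0.09 (SE, adjusted p = 0.985).

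The inhibitors moved in both directions. *KRP2* (AT3G50630), an auxin-regulated brake on lateral root initiation, measured 54.5, 57.9 and 54.6 CPM in WT replicates 1, 2 and 3 and 72.6, 87.8 and 86.9 CPM in *vip3-1* replicates 1, 2 and 3. All *vip3-1* libraries were above the nearly equal WT libraries. The means were 55.7 ± 1.92 CPM in WT and 82.5 ± 8.51 CPM in *vip3-1* (± SD, n = 3), a log2 fold change of 0.57 ± 0.09 (SE, adjusted p = 0.00698). Per length it was the highest of the inhibitors, 67.9 ± 4.73 FPKM in WT and 101 ± 15.5 FPKM in *vip3-1*.

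*KRP3* (AT5G48820) measured 45.2, 53.0 and 40.9 CPM in WT and 58.2, 66.8 and 60.0 CPM in *vip3-1*. The genotypes did not overlap, the log2 fold change was 0.41 ± 0.11 (SE, adjusted p = 0.0346), and the call held in 6 of 14 alternatives. *KRP6* (AT3G19150), known from the male germline where its protein must be degraded for division, measured only 1.93, 2.51 and 2.24 CPM in WT and 4.68, 4.39 and 3.97 CPM in *vip3-1*. Each *vip3-1* library exceeded each WT library by at least 1 CPM, and the log2 fold change was 0.97 ± 0.17 (SE, adjusted p = 0.01), or 1.95-fold.

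*KRP5* (AT3G24810), known from endoreduplication in the root and hypocotyl, was the only member called lower. It measured 38.6, 39.5 and 29.8 CPM in WT and 27.7, 27.1 and 26.8 CPM in *vip3-1*. WT replicate 3 lay between the other WT libraries and *vip3-1*, whose libraries were within 1 CPM of each other. The log2 fold change was -0.40 ± 0.11 (SE, adjusted p = 0.0387), and -0.52 without WT replicate 3 (adjusted p = 0.00175). The call was lost in 9 of the 14 alternatives, always with the same sign.

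*SIM* (AT5G04470), the founding SIAMESE-type inhibitor, which blocks mitosis in developing leaf hairs, had the largest change of the called members. It measured 3.43, 2.56 and 4.16 CPM in WT replicates 1, 2 and 3 and 8.21, 6.99 and 8.12 CPM in *vip3-1* replicates 1, 2 and 3. The *vip3-1* libraries were all above the highest WT library, which was replicate 3. The means were 3.39 ± 0.802 CPM in WT and 7.77 ± 0.677 CPM in *vip3-1* (± SD, n = 3), with a log2 fold change of 1.20 ± 0.20 (SE, adjusted p = 0.00809), or 2.30-fold, and 1.37 without WT replicate 3. *SIM* is among the genes with an annotated partner on the opposite strand, whose reads cannot be told apart if strand was not used in counting.

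*SMR1* (AT3G10525), also called *LGO* and known for setting the number of giant sepal cells, measured 0.708, 1.54 and 8.10 CPM in WT and 2.33, 1.26 and 2.99 CPM in *vip3-1*. A single library, WT replicate 3, stood above all others. The log2 fold change was -0.65 ± 0.87 (SE, adjusted p = 0.585), and its sign turned without that library, to 0.97 (adjusted p = 0.157), so these libraries give no direction for *SMR1*. *KRP4* (AT2G32710), a chromatin-bound inhibitor that couples cell size to S phase entry in the shoot meristem, showed the same pattern with 37.7, 41.0 and 71.4 CPM in WT and 37.7, 35.8 and 44.9 CPM in *vip3-1*. Its log2 fold change was -0.34 ± 0.25 (SE, adjusted p = 0.322), and 0.00 without WT replicate 3. *KRP1* and *KRP7*, at low levels, had log2 fold changes of -0.69 and -0.12 and overlapped. Without WT replicate 3 the median of the 9 inhibitors was 0.33 instead of -0.12, while 5 were again called.

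*CDKA;1* (AT3G48750), the kinase shared by both transitions, measured 74.4, 72.0 and 83.7 CPM in WT and 62.1, 64.9 and 70.2 CPM in *vip3-1*. All *vip3-1* libraries lay below all WT libraries. The means were 76.7 ± 6.17 CPM in WT and 65.7 ± 4.07 CPM in *vip3-1* (± SD, n = 3), and the log2 fold change of -0.22 ± 0.08 (SE, adjusted p = 0.085) was past the threshold only with the replicate block (adjusted p = 0.0388) and with library sizes left without TMM. *WEE1*, the kinase that halts the cycle upon DNA damage, overlapped between genotypes at 0.25 ± 0.20 (SE).

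The spread between replicates was described by class, without a test. In G1/S members the median SD of log2 CPM was 0.27 in WT and 0.10 in *vip3-1*, against 0.17 and 0.11 over all genes. In G2/M members it was 0.12 in WT and 0.10 in *vip3-1*, and in inhibitors 0.22 and 0.15. The WT spread of the G1/S members centred on WT replicate 3, which was the lowest WT library for 12 of 16 G1/S members, 13 of 19 G2/M members and 3 of 9 inhibitors, compared with 43.6% of all genes. The A3-type cyclins and the E2F-RBR genes all had their lowest WT value there, with median differences of -0.76 and -0.58 (log2) from the mean of the other WT libraries. Among *vip3-1* libraries, replicate 2 was the highest for 15 of 19 G2/M members and for 28 of all 46, compared with 7115 of the 20690 genes tested.

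**Figure D3:**
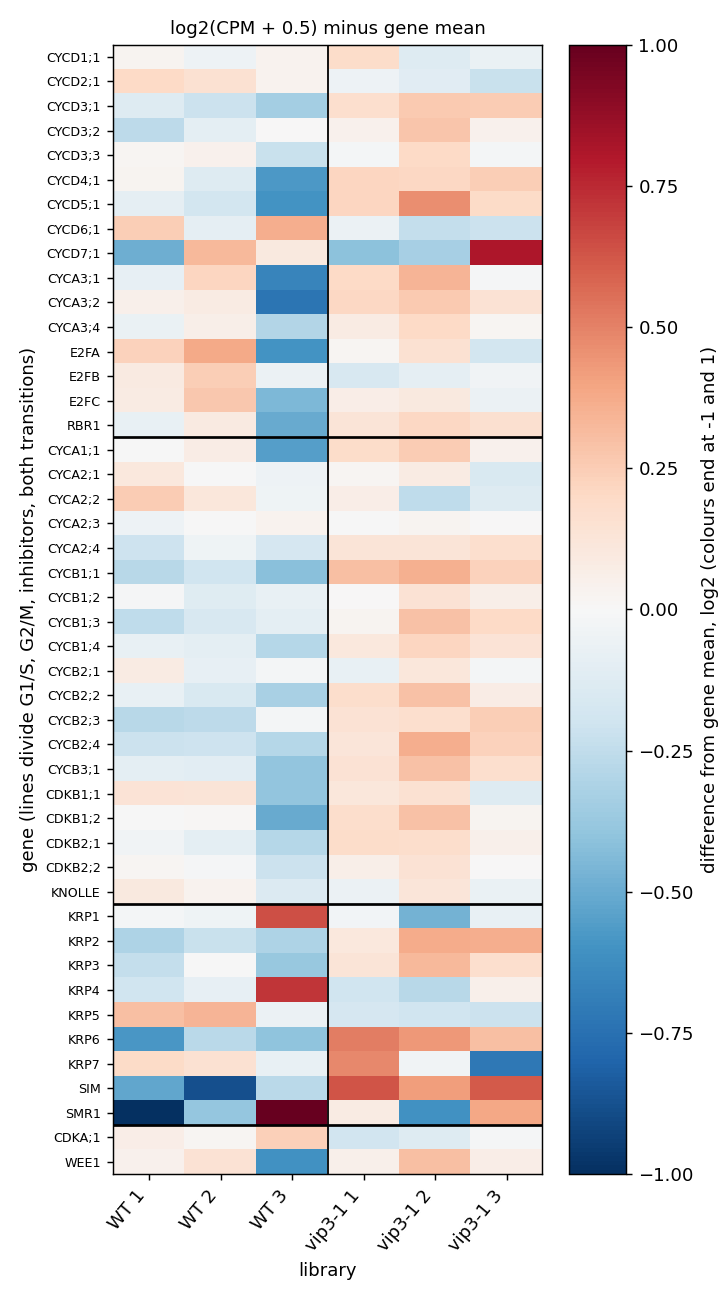
Log2 CPM of each gene in each library minus the mean of that gene over all 6 libraries, red for above and blue for below, with black lines between the classes and between the genotypes. WT replicate 3 is blue for most G1/S and many G2/M genes and red for *KRP1*, *KRP4* and *SMR1*.

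Leaving out each library in turn changed how many members were called, in step with how many genes were called in all. Without WT replicate 3, 18 members were called where 38.5% of all genes were. All 15 were among them, joined by *CYCD2;1*, *CYCD4;1* and *E2FB*, and the medians were 0.11 in G1/S members and 0.17 in G2/M members. Without WT replicate 1 there were 10 (21.3% of all genes) and without WT replicate 2 there were 8 (19.8%). Without *vip3-1* replicate 1, 2 or 3 there were 7, 6 and 7, where 15.4%, 12.7% and 17.7% of all genes were called. The calls lost without WT replicate 1 were those of *CYCA2;4*, *CYCB1;3*, *CYCB1;4*, *CYCB2;3*, *KRP3* and *KRP5* (adjusted p from 0.0509 to 0.101). Those lost without WT replicate 2 were *CYCD5;1*, *CYCB1;3*, *CYCB1;4*, *CYCB2;2*, *CYCB2;3*, *CYCB3;1* and *KRP5* (0.0511 to 0.103). Without any one *vip3-1* library, *CYCD5;1*, *CYCA2;4*, *CYCB1;4*, *CYCB2;3*, *CYCB3;1*, *KRP3* and *KRP5* were lost in each case. *CYCB2;2* was also lost without *vip3-1* replicate 1 or 2 and *CYCB1;3* without replicate 2 or 3, with adjusted p from 0.0653 to 0.123 over these 3 analyses. With limma on log2(FPKM + 1), which called 18.9% of all genes, 6 members were called and all 6 were higher.

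Other genes of the same pathway were taken from lists. Of 24 genes of DNA replication and S phase, 23 had point estimates above 0 and the median log2 fold change was 0.42. Only 1 was called (4.17%, against 30.7% of all genes). It was *RNR2A* (AT3G23580), a subunit of the enzyme that makes deoxyribonucleotides, with 34.2, 33.8 and 38.0 CPM in WT and 45.7, 43.0 and 43.6 CPM in *vip3-1*. It was higher in every *vip3-1* library, at a log2 fold change of 0.32 ± 0.07 (SE, adjusted p = 0.0196). WT replicate 3 was the lowest WT library for 23 of the 24, with a median difference of -0.70 (log2) from the other WT libraries. Without it the median was 0.22, and 6 genes were called higher and 1 lower, 29.2% of the list where 38.6% of the same 20690 genes were called.

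Of 19 genes of mitosis and cytokinesis, 6 were called (31.6%, against 30.7% of all genes), all higher, with a median of 0.28 over the list. *AUR1* (AT4G32830), an Aurora kinase of the spindle, measured 60.2, 56.2 and 45.2 CPM in WT and 101, 108 and 98.5 CPM in *vip3-1*. The lowest *vip3-1* library was well above the highest WT library, at a log2 fold change of 0.93 ± 0.11 (SE, adjusted p = 0.00358). *PANS1* (AT3G14190), which protects sister chromatid cohesion, measured 86.0, 81.5 and 66.9 CPM in WT and 125, 141 and 125 CPM in *vip3-1*. It did not overlap either, at 0.74 ± 0.11 (SE, adjusted p = 0.00608). The others were *AUR2*, *MAD2*, *EDE1* and *CDC20.2*, with log2 fold changes from 0.28 to 0.50.

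Of 26 other regulators, 25 were tested, 5 were higher and 1 was lower (24.0% called, against 30.7% of all genes). *CDKD;1* (AT1G73690), a kinase that activates other CDKs, measured 12.5, 13.4 and 9.95 CPM in WT and 19.0, 18.2 and 16.0 CPM in *vip3-1*, with a log2 fold change of 0.57 ± 0.13 (SE, adjusted p = 0.0218). *CYCA1;2* (AT1G77390), a cyclin known from meiosis, measured 8.67, 9.04 and 8.48 CPM in WT and 11.6, 13.3 and 12.5 CPM in *vip3-1*, with a log2 fold change of 0.51 ± 0.09 (SE, adjusted p = 0.00917). Both were higher in every *vip3-1* library. The gene called lower was *CYCB1;5* (AT1G34460), a B-type cyclin gene outside the set. It measured 4.25, 4.98 and 5.91 CPM in WT and 2.95, 2.86 and 3.44 CPM in *vip3-1*, with a log2 fold change of -0.71 ± 0.18 (SE, adjusted p = 0.0278). The other 3 were *MYB3R4*, an activator of G2/M genes, *FBL17*, whose product targets KRP proteins for degradation, and *CCS52B*, an activator of the anaphase-promoting complex, with log2 fold changes of 0.47, 0.45 and 0.33.

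Of 8 other SIAMESE-related genes, 7 were tested and 2 were higher (28.6% called, against 30.7% of all genes). *SMR4* (AT5G02220) measured 1.46, 1.00 and 0.875 CPM in WT and 2.04, 2.34 and 1.82 CPM in *vip3-1*, without overlap and with a log2 fold change of 0.89 ± 0.27 (SE, adjusted p = 0.0478). AT1G10690, annotated as a cyclin-dependent kinase inhibitor, measured 9.68, 9.46 and 9.11 CPM in WT and 12.8, 14.8 and 16.3 CPM in *vip3-1*. It did not overlap between genotypes and had a log2 fold change of 0.63 ± 0.11 (SE, adjusted p = 0.00873).

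Each *vip3-1* library was also set against WT replicates 1 and 2 alone, as a description without a test. The median difference of the G1/S members was 0.10, 0.18 and -0.01 (log2) in *vip3-1* replicates 1, 2 and 3, and that of the G2/M members was 0.17, 0.24 and 0.11. The inhibitors had medians of 0.31, 0.16 and 0.29. All medians but that of the G1/S members in *vip3-1* replicate 3 were above 0. WT replicate 3 differed from the same pair by -0.27 in G1/S members, -0.20 in G2/M members and 0.02 in inhibitors.

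**Figure D4:**
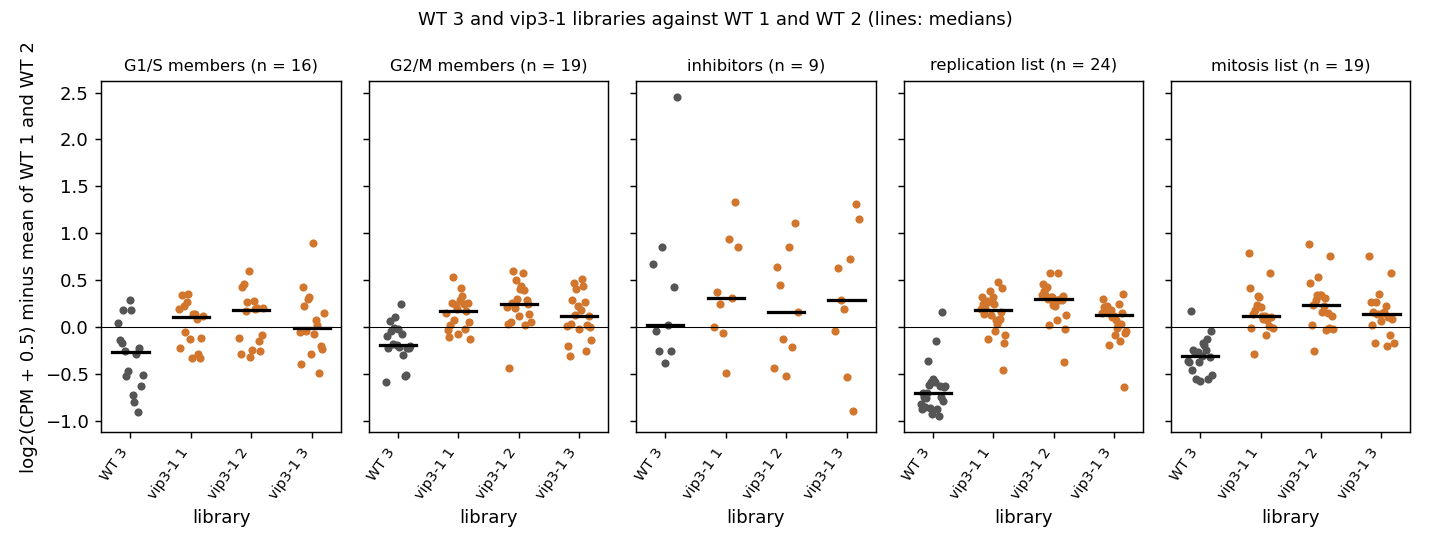
Log2 CPM, with 0.5 added to CPM, in WT replicate 3 and in each *vip3-1* library minus the mean of WT replicates 1 and 2, with a point per gene and a line at the median, for 3 classes of members and 2 lists. The replication list has its median at -0.70 in WT replicate 3 and at 0.18, 0.30 and 0.13 in the *vip3-1* libraries, and the mitosis list at -0.31 and at 0.12, 0.23 and 0.14.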

How the data were processed

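RNA of shoot apices was sequenced in 3 WT and 3 *vip3-1* libraries. The authors trimmed reads with Trimmomatic, mapped them to TAIR10 with TopHat2 2.0.6, Bowtie2 2.0.5 and SAMtools 1.2, and estimated expression with Cufflinks 2.1.1. The table deposited by the authors holds estimated counts per gene, not scaled for library size, of which 1.47% are not whole (0 of the 46 members), so all were rounded. Whole counts had been assumed when the tests were planned. A second deposited table holds FPKM, fragments scaled by the authors to transcript length and mapped fragments. A table of the authors' own comparison (fold changes, p- and q-values) was not used.

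The comparison of *vip3-1* with WT used edgeR 4.0.16 under R 4.3.3 (TMM, filterByExpr, quasi-likelihood F-test, genotype as the only factor) over all genes that passed the filter, with Benjamini-Hochberg adjustment and a threshold of 0.05. The SE was obtained from the log2 fold change and F, as its size over the root of F. A prior count of 2 went into the log2 CPM behind each replicate SD. An exact permutation test of 3 libraries against 3 cannot give a p below 0.1. Alternatives were DESeq2 1.42.0, library sizes without TMM, no filter, a minimum of 10 counts per library, a block for the replicate number, limma 3.58.1 on log2 FPKM (pseudocount 1 or 0.1, and 1 with no filter), and each library left out in turn. Summaries and figures used python 3.11.15, pandas 2.3.3, numpy 2.4.6 and matplotlib 3.10.9.

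Replicate numbers come from the sample labels. Same-numbered libraries of the 2 genotypes correlated in their deviations from the genotype means at 0.22, 0.19 and 0.37. Of the pairs with unlike numbers, WT replicate 1 and *vip3-1* replicate 2 correlated at 0.29 and all others were negative, from -0.44 to -0.06. The methods do not state that same-numbered libraries were handled together, so whether the numbers pair them is not known. The main fit used no pairing, and the replicate block was run only as an alternative. No library was a copy of another (chi-square per degree of freedom from 22.8 to 137).

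The members and gene lists were chosen with earlier results of these data known. Values in every library are given for each called member, for members not called whose genotypes did not overlap or whose log2 fold change was 0.5 or more in size at a mean of at least 1 CPM, for *CDKA;1* and *RBR1*, and for the member of highest FPKM in each class, 26 in all. *KRP4* was given its values outside this rule, after they were seen. Of each other list, up to 2 called genes with the largest rise and 2 with the largest fall are given. Promoters are from RefSeq TAIR10.1, in which 4951 of 4951 gene spans compared with the deposited ones overlapped the same locus.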

Additional observations from a re-analysis of the deposited data

How the results depend on the processing

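The 15 called members were recomputed under 14 alternatives. Of the 210 values, 138 stayed past the threshold, 72 kept their direction but missed it, and 0 changed direction. With a library left out a direction could hardly change, as the genotypes did not overlap in any of these genes. Of 154 values of the 11 other members named with values, 11 passed the threshold and 10 changed sign. DESeq2, library sizes without TMM, no filter, at least 10 counts in every library and the replicate block called 17, 12, 13, 16 and 18 members. Over all genes they called 8084 of 20690, 7056 of 20690, 5501 of 26634, 6103 of 19351 and 7388 of 20690 tested. The main fit called 6354 of 20690. The replicate block called 10 G2/M members, adding *CDKB2;1* and *CDKB1;2*, and *CDKA;1*, and it changed no other call of a member. The correlations of same-numbered libraries are given with the processing.

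Limma on FPKM called 3901 genes at a pseudocount of 1, 4011 at 0.1 and 3297 at 1 without a filter, and each time 6 members, 1 of them G1/S, 2 G2/M and 3 inhibitors. Without TMM, 4 G2/M members were called and their median was 0.18. Leaving out each library in turn gave from 2673 to 8055 called genes, 6 to 18 members, 1 to 5 G1/S members, 2 to 8 G2/M members and 3 to 5 inhibitors. The G2/M median then ranged from 0.17 to 0.33 and the inhibitor median from -0.32 to 0.33, the latter being 0.33 without WT replicate 3 and 0.16 without *vip3-1* replicate 3. *KNOLLE*, close to 0 throughout, was furthest from it with library sizes without TMM, at -0.098. It had 0.010 with DESeq2, 0.0012 with at least 10 counts, 0.010 with limma in each form, and from -0.074 to 0.048 with a library left out. *SMR1* ranged from -1.13 to 0.97 with a library left out, its sign being positive only without WT replicate 3 (0.97). The cause was not tested. 

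Every member had more than 3 counts in every library, but *KRP1* and *CYCD7;1*, at the lowest levels, had standard errors of 0.42 and 0.75 on the log2 scale. The limits are the 3 libraries per genotype, of which WT replicate 3 stands apart, and the unknown relation of the pooled tubes to separately grown plants.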

Other observations

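Meiosis genes, which share cohesin, recombination and cyclin partners with the mitotic cycle, did not move together in these apices. *SYN1* (AT5G05490), the meiotic cohesin subunit also known as *REC8*, measured 2.13, 2.28 and 1.01 CPM in WT and 14.4, 14.0 and 17.0 CPM in *vip3-1*. All *vip3-1* libraries were several times above all WT libraries, at a log2 fold change of 3.06 ± 0.30 (SE, adjusted p = 0.00199) in edgeR's quasi-likelihood test. *ASY1*, a protein of the meiotic chromosome axis, measured 7.28, 4.93 and 2.61 CPM in WT and 2.48, 1.65 and 1.60 CPM in *vip3-1*, with a log2 fold change of -1.37 ± 0.40 (SE, adjusted p = 0.0422), and its lowest WT library lay just above the highest *vip3-1* library. *DMC1*, a meiotic recombinase, measured 17.8, 17.6 and 16.0 CPM in WT and 15.3, 12.1 and 11.8 CPM in *vip3-1*, with a log2 fold change of -0.39 ± 0.12 (SE, adjusted p = 0.0485). *SDS*, a meiotic cyclin, and *SPO11-1*, which makes the first DNA breaks, were not past the threshold, at -0.29 and -0.09. The 5 genes were chosen as markers of meiotic cells, with earlier results of these data known.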
